A study of Rattus norvegicus with 9 samples.

Results

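Hearts of the spontaneously hypertensive rat (SHR) were compared with hearts of the Wistar-Kyoto rat (WKY), the normotensive comparison strain, over every gene of the deposited table. The comparison held 6 of the 9 libraries of the series, chosen by their labels: 3 of WKY and 3 of SHR, all from rats that received water without drug. The remaining 3 libraries, from SHR that received the angiotensin receptor blocker allisartan, entered only the estimate of spread. Both untreated groups were acclimatized for 1 week, then received 1 ml of distilled water by mouth for 34 weeks, and their hearts were sequenced at 48 weeks of age. Total RNA of heart tissue was made into stranded poly(A)-selected libraries. The labels do not name the sex of the rats, and whether the groups matched in sex was not tested. They name no chamber of the heart and do not say whether each library came from 1 rat. The p-values thus measure the spread between libraries, which may be technical. All hypertensive hearts here were SHR and all normotensive hearts were WKY, so an effect of blood pressure and an effect of strain cannot be told apart.

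The SHR develops high blood pressure as it matures and keeps it for life. A left ventricle that pumps against high pressure thickens. In such hearts fibroblasts are known to lay down collagen, macrophages gather, cardiomyocytes return to genes of the fetal heart, and fatty acid burning tends to decline. The strains were also inbred apart from each other and carry different alleles at many loci.

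Expression is given as rescaled FPKM, fragments scaled to transcript length and to the mapped total of the library, divided by 1 factor per library. Of 22601 genes in the table, 11717 reached 0.5 FPKM in at least 3 libraries and were tested. The SHR libraries listed slightly more genes above 0, 14844 to 14948 against 14489 to 14677 in WKY. The spacing of the lowest values put the sequencing depth of the 3 WKY libraries at 0.959 to 1 times that of WKY library 1, and that of SHR libraries 1, 2 and 3 at 0.943, 1.13 and 1.08 times. SHR libraries 2 and 3 thus lay above every WKY library, and the part of depth in the results was not tested. These estimates are rough, since only 14.8% to 24.6% of the ratios behind them lay within 0.1 of the most frequent ratio. The defining cardiomyocyte transcripts were abundant in all 6 libraries. Tnnt2, cardiac troponin T, for example, stood at 3394, 3263 and 3096 FPKM in WKY and 2807, 2842 and 2755 in SHR. Markers of B cells summed to at most 0.520 FPKM in any of the 6.

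Between the strains, 2561 genes (21.9% of those tested) passed an adjusted p of 0.05 in limma. Of these, 1398 (11.9%) were higher in SHR and 1163 (9.93%) were lower. At least 2-fold changes were more often rises: 296 genes (2.53%) were called and at least 2-fold higher, against 99 (0.845%) at least 2-fold lower. The median log2 change over all genes was 0.01, with 9 genes in 10 between -0.55 and 0.74. In 4790 genes (40.9%) the 3 SHR values lay all above or all below the 3 WKY values, and every called gene whose library values are given in full is among these. Log2 differences are on the scale of log2(FPKM + 0.5), SHR minus WKY, with standard errors after ±. A stricter test, against a change of 2-fold instead of 0, passed 44 higher and 13 lower genes. Because 6 of the 9 libraries that entered the filter were SHR, a gene near 0 in WKY could be tested through SHR libraries alone. Likewise, a gene near 0 in SHR could be tested through the 3 WKY libraries alone. The balance of calls changed with expression level. Among 1446 genes with a mean under 1 FPKM, 144 were higher and 45 lower. Among 526 genes of 100 FPKM or more, 57 were higher and 136 lower. Leaving out 1 of the 6 untreated libraries reduced the calls, to 1551 without SHR library 3 (892 higher and 659 lower), 1746 without WKY library 2, 1776 without WKY library 1, 1848 without SHR library 2, 2087 without WKY library 3 and 2356 without SHR library 1. The lower calls numbered 755 without WKY library 1 and 745 without WKY library 2. With FPKM used without rescaling, 64.6% of the calls were higher instead of 54.6%.

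**Figure D1:**
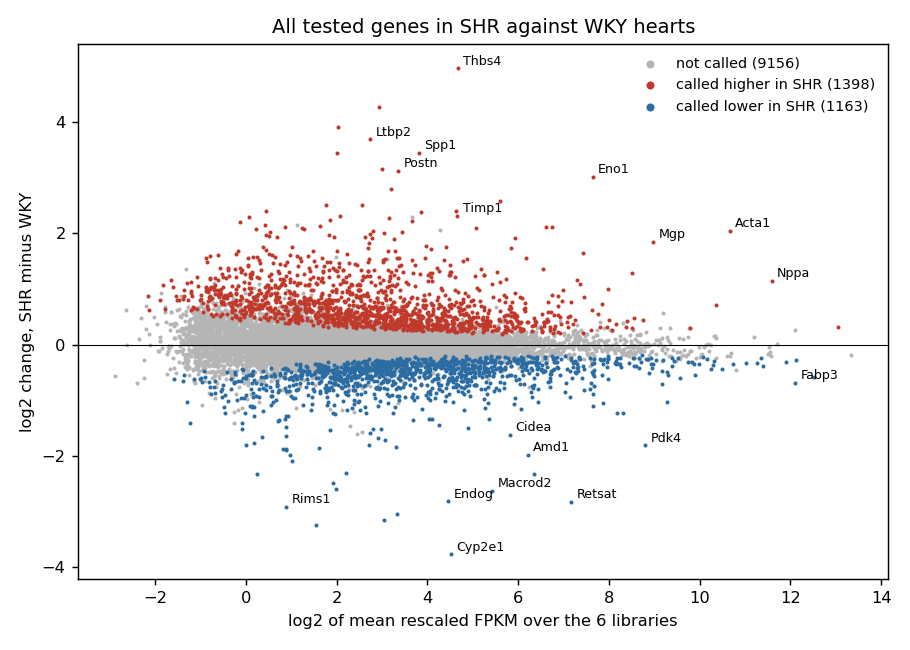
Each point is 1 of the 11717 tested genes, placed by the log2 of its mean rescaled FPKM over the 6 libraries (x axis) and its log2 change, SHR minus WKY (y axis). Red points are the 1398 genes called higher in SHR, blue points the 1163 called lower and grey points the rest, and the rises reach further from 0 than the falls, up to 4.96 for Thbs4 against -3.77 for Cyp2e1.

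Genes of the extracellular matrix were called higher far more often than lower. Among fibrillar and fibril-associated collagens, 14 of the 18 tested members (77.8%) were called higher and 0 lower, with a median log2 change of 1.08. The counts of this and every later list stand beside 11.9% higher and 9.93% lower over all tested genes and a median of 0.01. These shares cover genes of all levels, so they are no matched background for lists of mainly low or mainly high genes. The largest rise was in Col8a1, a chain of the short network collagen of vessel walls and injured hearts. It stood at 1.99, 2.96 and 3.33 FPKM in WKY and 13, 15.2 and 16.8 in SHR. All SHR libraries stood above all WKY libraries, by 5.43 times in the means (log2 difference 2.26 ± 0.20, adjusted p = 5.35e-05). Its partner chain Col8a2 was at 0.404, 0.448 and 0.328 FPKM in WKY and 1.8, 2.26 and 2.12 in SHR (log2 difference 1.52 ± 0.17, adjusted p = 0.000198). The groups were again apart, although Col8a2 is expressed at a low level in both. Col18a1, a vessel wall collagen whose end fragment is endostatin, went from 2.1, 1.61 and 2.26 FPKM to 6.31, 4.96 and 6.13 (log2 difference 1.34 ± 0.14, adjusted p = 0.000162). The main fibril collagens Col3a1 and Col1a1 were called higher by amounts similar to Col8a1. Over the main fit and its alternatives, apart from the 2-fold test, log2 changes were 1.93 to 2.23 for Col3a1 and 1.99 to 2.14 for Col1a1. Those of Col8a1 were 2.08 to 2.42. Col1a2, the partner of Col1a1 in type I collagen, did not pass: it stood at 1.99, 1.37 and 1.02 FPKM in WKY and 10.1, 1.74 and 7.36 in SHR (log2 difference 1.57 ± 0.60, adjusted p = 0.0866).

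Another list holds the enzymes that fold, modify and crosslink collagen. In it 14 of the 26 tested members (53.8%) were called higher and 0 lower (median 0.41). Loxl1, a lysyl oxidase that crosslinks elastin and collagen, stood at 2.95, 4.32 and 5.48 FPKM in WKY and 20.8, 21.5 and 20.9 in SHR. The SHR values were nearly equal and 4.95 times the WKY mean (log2 difference 2.22 ± 0.21, adjusted p = 6.33e-05). Plod2, the lysyl hydroxylase that prepares the most stable crosslinks, was at 2.19, 2.46 and 3.17 FPKM in WKY and 12.2, 9.32 and 9.79 in SHR (log2 difference 1.82 ± 0.22, adjusted p = 0.000346). P3h2, a prolyl hydroxylase, was at 1.13, 1.6 and 2.12 FPKM in WKY and 4.99, 4.94 and 9.22 in SHR, with SHR library 3 clearly the highest (log2 difference 1.67 ± 0.25, adjusted p = 0.00122). Loxl2 (1.21) and Pcolce (1.06), which speeds the trimming of procollagen, were also called higher.

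Matricellular proteins, which sit in the matrix and signal to cells without bearing load, were mostly called higher. Here 15 of the 19 tested members (78.9%) were called higher and 1 lower, with a median of 1.01. Thbs4, a thrombospondin of stressed muscle, was at 0.952, 1.29 and 1.08 FPKM in WKY and 44.5, 46.9 and 58 in SHR, the largest log2 change of all named genes on the log2(FPKM + 0.5) scale (log2 difference 4.96 ± 0.28, adjusted p = 2.6e-06). Spp1 encodes osteopontin, a phosphoprotein of bone and of macrophages and fibroblasts in injured hearts. It stood at 2, 1.69 and 2.16 FPKM in WKY and 26.2, 25.4 and 26.6 in SHR, with little spread in either strain (log2 difference 3.44 ± 0.40, adjusted p = 0.000239). Wisp2, a member of the CCN family, was close to 0 in WKY, at 0.398, 0.197 and 0.208 FPKM in WKY and 7.39, 7.34 and 8.65 in SHR (log2 difference 3.44 ± 0.24, adjusted p = 1e-05). Tenascin C, an embryonic glycoprotein that returns in wounds, behaved alike, its gene Tnc being at 0.263, 0.204 and 0.334 FPKM in WKY and 2.74, 2.73 and 2.39 in SHR (log2 difference 2.02 ± 0.15, adjusted p = 2.2e-05). The single lower call was Cyr61, and it failed without any 1 of the 6 libraries.

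Proteoglycan and elastic fibre genes were also called higher more often than lower. Among proteoglycans 7 of the 16 tested members (43.8%) were called higher and 1 lower (median 0.37). Bgn, biglycan, stood at 36.3, 35.8 and 37.6 FPKM in WKY and 154, 147 and 179 in SHR, a 4.38-fold rise with tight groups (log2 difference 2.11 ± 0.14, adjusted p = 9.3e-06). Prelp, another leucine-rich proteoglycan, was at 6.56, 6.89 and 6.95 FPKM in WKY and 23.2, 23.7 and 26.8 in SHR (log2 difference 1.78 ± 0.12, adjusted p = 9.3e-06). The lower call was Sdc4, whose call was lost without WKY library 2 or SHR library 2. Among elastic fibre and microfibril genes 11 of the 20 tested members (55%) were called higher and 0 lower (median 0.43). Fbn1, fibrillin, the backbone of microfibrils, was at 5.07, 4.92 and 6.75 FPKM in WKY and 15, 17 and 15.2 in SHR (log2 difference 1.43 ± 0.13, adjusted p = 6.9e-05). The fibulins Fbln2 and Fbln1, which bind fibrillin and elastin, had log2 changes of 1.26 and 1.22. Ltbp2, a microfibril protein related to the binders of latent TGF-beta, was under 1 FPKM in every WKY library and at 11.9, 10.4 and 15.9 in SHR (log2 difference 3.69 ± 0.29, adjusted p = 2.41e-05).

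Basement membranes are the thin sheets around myocytes and vessels. Of their 17 tested members 7 (41.2%) were called higher and 1 lower, with a median of 0.26. Lamc1, the laminin chain common to most laminins, was at 40.5, 39.8 and 45.6 FPKM in WKY and 72.8, 76.3 and 91.9 in SHR (log2 difference 0.92 ± 0.10, adjusted p = 0.000202). Col4a1 (0.51) and Lamb1 (0.43) were called higher by smaller amounts. Lamb2, the beta chain of mature muscle basement membrane, was instead lower, at 175, 172 and 154 FPKM in WKY and 120.3, 139.8 and 120.0 in SHR (log2 difference -0.40 ± 0.08, adjusted p = 0.00547).

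The list of matrix proteases and their inhibitors had calls in both directions. In it 16 of the 28 tested members (57.1%) were called higher and 3 lower (median 0.38), although the higher calls numbered 10 without WKY library 2 or without SHR library 2. Timp1, an inhibitor of metalloproteinases induced in fibrosis, stood at 5.95, 8.48 and 10.5 FPKM in WKY and 38.9, 40.6 and 47.6 in SHR, 5.09 times as high (log2 difference 2.31 ± 0.24, adjusted p = 0.000128). Mmp2, a gelatinase of fibroblasts, was at 20.5, 16 and 23.7 FPKM in WKY and 54.4, 46.5 and 54.9 in SHR (log2 difference 1.36 ± 0.16, adjusted p = 0.000253). Mmp12, an elastase of macrophages, was near 0 in WKY, at 0.188, 0 and 0.0473 FPKM in WKY and 0.659, 0.88 and 0.653 in SHR (log2 difference 1.10 ± 0.21, adjusted p = 0.00423). Adamts12 went the other way, from 4.92, 4.54 and 4.19 FPKM to 2.22, 2.78 and 2.36 (log2 difference -0.78 ± 0.11, adjusted p = 0.00094).

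Markers of fibroblasts were also called higher more often than lower. Their list shares Col1a1, Col1a2, Dcn, Lum and Mfap5 with the matrix lists above. Col1a1, Lum and Mfap5 were among the higher calls, so these lists partly count the same genes. Of 12 fibroblast markers, 7 were called higher and none lower, and their summed level was 797 to 861 FPKM in WKY against 1075 to 1149 in SHR. The list was uneven. Pi16, a marker of resting adventitial fibroblasts, was at 10.9, 13.2 and 11.9 FPKM in WKY and 33.5, 32.9 and 33.4 in SHR (log2 difference 1.44 ± 0.13, adjusted p = 4.81e-05). Pdgfra, the receptor that defines cardiac fibroblasts, stood at 7.4, 7.94 and 8.36 FPKM in WKY and 9.67, 8.63 and 8.38 in SHR and did not pass (log2 difference 0.16 ± 0.11, adjusted p = 0.336). In bulk tissue a larger number of fibroblasts and more RNA per fibroblast cannot be told apart, and the part of cell number in the matrix results was not tested.

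**Figure D2:**
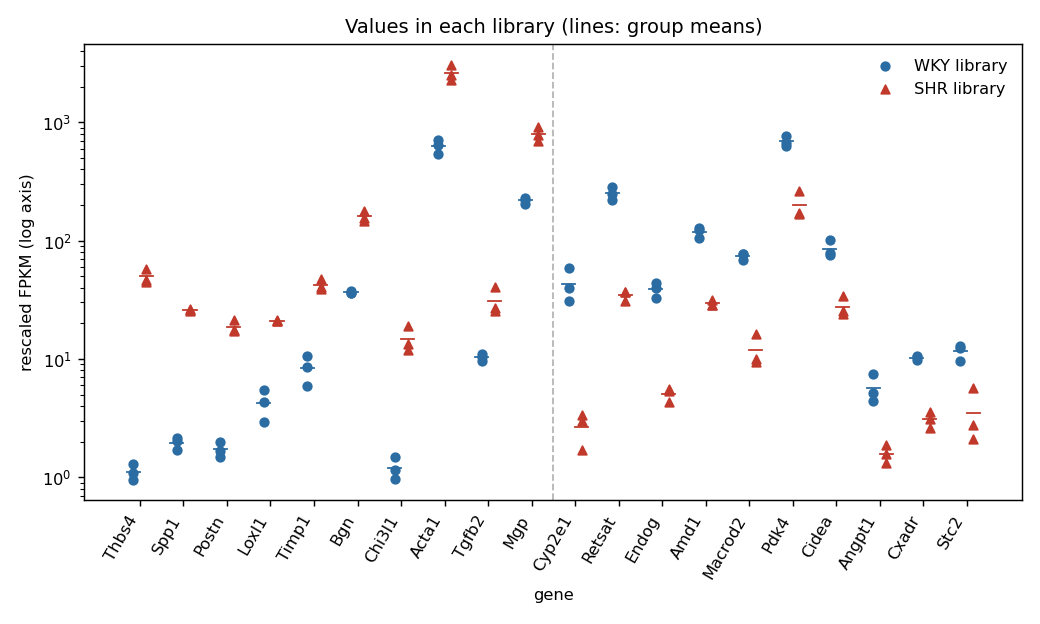
Rescaled FPKM of 20 named genes in each library, on a log axis. Blue circles are the 3 WKY libraries, red triangles the 3 SHR libraries and short lines the group means, with genes called higher in SHR left of the dashed line and genes called lower to its right. In no gene shown do the groups overlap.

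Of the growth factor pathways that drive fibroblasts, TGF-beta signalling had calls among its ligands and among other members. In it 6 of the 23 tested members (26.1%) were called higher and 1 lower, with a median of 0.15. Tgfb2 stood at 10.3, 9.66 and 10.9 FPKM in WKY and 25.2, 27 and 40.8 in SHR, SHR library 3 being the highest (log2 difference 1.51 ± 0.16, adjusted p = 0.000128). Tgfb3 was at 6.6, 7.16 and 6.87 FPKM in WKY and 11.8, 11.6 and 12.5 in SHR (log2 difference 0.76 ± 0.09, adjusted p = 0.000239). Pmepa1, a target gene of the pathway that also restrains it, was at 13.6, 12.6 and 12.4 FPKM in WKY and 24.6, 24.1 and 30.9 in SHR (log2 difference 1.01 ± 0.15, adjusted p = 0.00121). The lower call, the inhibitor Smad6, was lost without SHR library 3. Among BMP, activin and GDF genes 5 of the 25 tested members (20%) were called higher and 2 lower, but the higher calls fell to 1 without WKY library 1, and to 2 without WKY library 3 or SHR library 3. Calls there that remained in all the leave-one-out fits were those of Fstl1, a secreted follistatin-like glycoprotein, and Inha, the inhibin alpha chain. Fstl1 was at 13, 11.3 and 14.5 FPKM in WKY and 33.9, 31.4 and 32.5 in SHR (log2 difference 1.31 ± 0.10, adjusted p = 2.28e-05) and Inha at 15.5, 9.51 and 11.1 FPKM in WKY and 6.5, 4.64 and 5.33 in SHR (log2 difference -1.05 ± 0.19, adjusted p = 0.0033).

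Other growth factor families showed no common direction. 3 of the 20 tested members (15%) were called higher and 3 lower among Wnt genes (median 0.01), and only 1 was higher without SHR library 3. Sfrp4, a secreted Wnt antagonist, was at most 0.137 FPKM in WKY and 0.709, 1.38 and 1.63 in SHR (log2 difference 1.60 ± 0.22, adjusted p = 0.000692). Dkk3, of the Dickkopf family, was instead lower, at 42, 45.3 and 36.6 FPKM in WKY and 21.9, 25.2 and 26.8 in SHR (log2 difference -0.73 ± 0.10, adjusted p = 0.000648). Among FGF, PDGF, VEGF and neuregulin genes 4 of 32 were higher and 4 lower, shares of 12.5% each that lie near those of all genes. Angpt1, the ligand that steadies vessels through the receptor Tie2, was lower, at 7.43, 4.38 and 5.11 FPKM in WKY and 1.86, 1.56 and 1.31 in SHR, a 3.57-fold difference (log2 difference -1.54 ± 0.17, adjusted p = 0.000221). Hbegf, a heparin-binding ligand of the EGF receptor, was higher, at 5.2, 4.76 and 6.22 FPKM in WKY and 10.8, 10.3 and 11.2 in SHR (log2 difference 0.94 ± 0.15, adjusted p = 0.00143).

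In the insulin-like growth factor axis most calls were binding proteins. 5 of the 11 tested members (45.5%) were called higher and 1 lower (median 0.47). Igfbp5 was at 11, 15.8 and 15.8 FPKM in WKY and 39.6, 37.9 and 44.5 in SHR (log2 difference 1.5 ± 0.17, adjusted p = 0.000198), and Igfbp6, Igfbp7 and Igfbp4 had log2 changes of 1.25, 0.86 and 0.81. The growth factor Igf1 was at 7.88, 6.34 and 7.96 FPKM in WKY and 14.1, 10.9 and 11.1 in SHR (log2 difference 0.66 ± 0.12, adjusted p = 0.00338). Stc2, a stanniocalcin that blocks the protease releasing IGF from its binding proteins, was lower, at 12.3, 12.9 and 9.51 FPKM in WKY and 2.77, 5.63 and 2.12 in SHR. The SHR libraries ranged widely, from 2.12 to 5.63 FPKM, but all stayed under the lowest WKY library (log2 difference -1.68 ± 0.30, adjusted p = 0.00295).

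Lists of innate immunity and injury had more higher than lower calls, although most tested chemokine and cytokine genes were not called. Chemokines recruit leukocytes through their receptors: 10 of the 26 tested members (38.5%) were called higher and 0 lower (median 0.73). Ccl7, a ligand for monocytes, was at 0.834, 1.25 and 0.716 FPKM in WKY and 6.87, 6.6 and 5.25 in SHR (log2 difference 2.24 ± 0.20, adjusted p = 4.97e-05). Cx3cr1, the fractalkine receptor of monocytes and resident macrophages, was near 0 in WKY, at 0.188, 0.181 and 0.0951 FPKM in WKY and 1.4, 1.96 and 1.46 in SHR (log2 difference 1.68 ± 0.19, adjusted p = 0.000192). Ackr1, an atypical receptor that displays chemokines on venules, was at 0.433, 0.745 and 0.158 FPKM in WKY and 1.54, 2.4 and 3.26 in SHR (log2 difference 1.62 ± 0.32, adjusted p = 0.00503). Cxcl13, which attracts B cells, was at 0.512, 1.06 and 0.724 FPKM in WKY and 3.15, 3.06 and 2.75 in SHR (log2 difference 1.49 ± 0.29, adjusted p = 0.00504), while B cell markers were near 0 in both strains.

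In the interleukin-6, interleukin-1 and colony-stimulating factor list 12 of the 27 tested members (44.4%) were called higher and 0 lower (median 0.37). Tnfrsf11b, osteoprotegerin, a decoy receptor better known from bone, was at 1.27, 0.481 and 1.52 FPKM in WKY and 4.26, 3.78 and 4.18 in SHR (log2 difference 1.59 ± 0.24, adjusted p = 0.00112). Socs3, the feedback inhibitor induced by STAT3, was at 2.96, 2.04 and 2.52 FPKM in WKY and 5.27, 5.3 and 5.51 in SHR (log2 difference 0.97 ± 0.18, adjusted p = 0.0039), and Osmr, the oncostatin M receptor, had a log2 change of 0.96.

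Among secreted injury and acute-phase proteins 12 of the 20 tested members (60%) were called higher and 0 lower (median 1.04). Reg3g, a lectin of the Reg family, was at 0.155, 0.303 and 0 FPKM in WKY and 2.89, 1.17 and 3.49 in SHR (log2 difference 2.14 ± 0.31, adjusted p = 0.00097). Its neighbour Reg3b was at 1.67, 1.5 and 2.72 FPKM in WKY and 18.3, 13 and 17.7 in SHR (log2 difference 2.79 ± 0.20, adjusted p = 1.43e-05), and reads could be shared between these related genes. Lbp, the lipopolysaccharide-binding protein of the acute phase, was at 2.61, 2.64 and 3.34 FPKM in WKY and 9.45, 11.2 and 20.1 in SHR, SHR library 3 being the highest (log2 difference 2.0 ± 0.26, adjusted p = 0.000481). S100a8 and S100a9, the main proteins of neutrophils, did not follow: S100a8 was at 2.71, 2.87 and 2.95 FPKM in WKY and 1.61, 2.82 and 1.47 in SHR and was not called.

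The list also holds the metallothioneins, small proteins that bind zinc and copper. Metals induce them through metal response elements, and glucocorticoids and inflammation induce them too. Their promoters are shown because Mt1 and Mt2A moved together. They are RefSeq windows of build GRCr8, from 250 bases before to 50 bases after the start, Mt1 at chr19:10832926-10833225, minus strand and Mt2A at chr19:10838659-10838958, minus strand. Capitals mark matches to TGCNCNC on either strand. This pattern is looser than the core of the metal response element, so not every match is such a core.
Mt1: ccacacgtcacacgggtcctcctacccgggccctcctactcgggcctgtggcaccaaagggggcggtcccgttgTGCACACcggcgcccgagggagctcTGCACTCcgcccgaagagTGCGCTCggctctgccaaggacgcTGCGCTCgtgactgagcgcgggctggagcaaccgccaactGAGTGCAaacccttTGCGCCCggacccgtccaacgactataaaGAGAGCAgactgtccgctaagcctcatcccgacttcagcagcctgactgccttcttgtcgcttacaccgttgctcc
Mt2A: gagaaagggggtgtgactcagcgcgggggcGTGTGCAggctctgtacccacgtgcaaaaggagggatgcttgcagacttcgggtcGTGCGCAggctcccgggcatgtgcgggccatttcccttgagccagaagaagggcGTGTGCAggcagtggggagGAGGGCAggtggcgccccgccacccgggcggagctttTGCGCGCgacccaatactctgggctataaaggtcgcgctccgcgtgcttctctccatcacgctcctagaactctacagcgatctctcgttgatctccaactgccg
The Mt1 window held 7 matches and the Mt2A window 5. A single match is common, with 50.1% of 27457 windows holding at least 1, but at least 5 were found in 0.652% of them. Over the 9449 windows of tested genes these shares were 60.8% and 0.995%. Mt2A was at 31.3, 20.7 and 23.1 FPKM in WKY and 80.7, 86.4 and 122 in SHR (log2 difference 1.92 ± 0.22, adjusted p = 0.000239). Mt1 was at 66.6, 50.5 and 42.2 FPKM in WKY and 133, 132 and 139 in SHR (log2 difference 1.36 ± 0.18, adjusted p = 0.000559), so both groups were apart in both genes.

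Integrins, the receptors for matrix and for leukocyte adhesion, gave 45% higher calls, 9 of 20, and none lower (median 0.30). The beta and alpha chains of the leukocyte integrin rose together: Itgb2 was at 1.65, 1.35 and 1.92 FPKM in WKY and 4.42, 4.89 and 3.93 in SHR (log2 difference 1.20 ± 0.14, adjusted p = 0.000229) and Itgam at 0.66, 0.634 and 0.719 FPKM in WKY and 1.6, 1.32 and 1.82 in SHR (log2 difference 0.82 ± 0.17, adjusted p = 0.00588). Itgbl1, a secreted integrin-like protein, was at 5.76, 5.81 and 6.73 FPKM in WKY and 18.3, 13.4 and 15.7 in SHR (log2 difference 1.29 ± 0.14, adjusted p = 0.000171), and Itga8, an integrin of fibroblasts and smooth muscle, had a log2 change of 0.77.

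Clotting and plasminogen genes changed in both directions. 8 of the 18 tested members (44.4%) were called higher and 2 lower (median 0.40), with 5 higher without WKY library 1 or WKY library 2. Plaur, the urokinase receptor, was at 0.177, 0.858 and 1.1 FPKM in WKY and 3.58, 2.99 and 3.46 in SHR (log2 difference 1.75 ± 0.39, adjusted p = 0.00979). Serpinf1, an inhibitor of vessel growth, was at 17.1, 11.9 and 15.5 FPKM in WKY and 45.4, 38.9 and 46 in SHR (log2 difference 1.53 ± 0.12, adjusted p = 2.92e-05), and Serpine2, an inhibitor of thrombin and plasminogen activators, at 9.21, 10.6 and 10.1 FPKM in WKY and 31.7, 19.6 and 30.6 in SHR (log2 difference 1.38 ± 0.16, adjusted p = 0.000255). Tfpi, the tissue factor inhibitor, was instead lower (-0.59).

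Macrophage markers were also mostly called higher, and their list shares Csf1r, a higher call, with the colony-stimulating factor list. Of 12, 11 were called higher and none lower, and their summed level was 165 to 187 FPKM in WKY against 439 to 515 in SHR. Adgre1, the F4/80 antigen, was at 1.56, 1.4 and 2.2 FPKM in WKY and 3.78, 4.42 and 3.32 in SHR (log2 difference 0.98 ± 0.17, adjusted p = 0.00231). Among 6 tested T and NK cell markers the only call was Cd4, at 3.43, 3.52 and 3.82 FPKM in WKY and 8.67, 8.92 and 9.77 in SHR (log2 difference 1.23 ± 0.13, adjusted p = 0.00014), a gene that rat macrophages also express. The T cell receptor component Cd3e was at most 0.496 FPKM in any library. The part of macrophage number in the immune results was not tested.

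**Figure D3:**
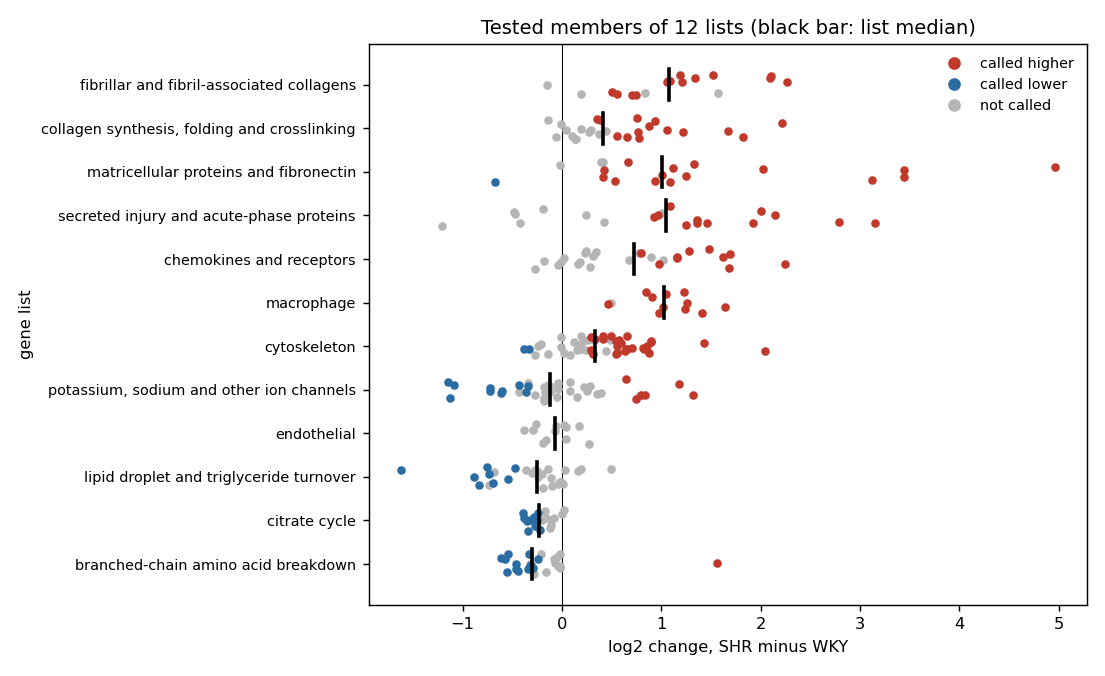
Each point is a tested member of 1 of 12 gene lists, placed by its log2 change, SHR minus WKY (x axis); the vertical scatter within a list has no meaning. Red points were called higher, blue points lower and grey points not called, and black bars mark the list medians, which run from 1.08 for fibrillar and fibril-associated collagens to -0.30 for branched-chain amino acid breakdown.

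Lists of the cytoskeleton and of stretch and Z-disc stress had more higher than lower calls, and in bulk heart these cannot be assigned to 1 cell type. Among actin, tubulin and intermediate filament genes and their partners 27 of the 51 tested members (52.9%) were called higher and 2 lower (median 0.33). Acta1, skeletal alpha-actin, the fetal partner of cardiac actin, was at 712, 540.0 and 646 FPKM in WKY and 2487, 2283 and 3067 in SHR, 4.13 times higher in the means (log2 difference 2.04 ± 0.19, adjusted p = 7.35e-05). The small calcium-binding proteins S100a4 and S100a6 had log2 changes of 1.43 and 0.90. Cnn2, calponin of non-muscle and smooth muscle cells, was at 5.19, 5.68 and 6.34 FPKM in WKY and 9.36, 11.5 and 12.5 in SHR (log2 difference 0.89 ± 0.14, adjusted p = 0.00182). Tpm2, a tropomyosin, was at 3.97, 4.23 and 4.97 FPKM in WKY and 8.74, 7.33 and 9.28 in SHR (log2 difference 0.87 ± 0.13, adjusted p = 0.00106). Tuba8, an alpha-tubulin of muscle, was lower (-0.39, adjusted p = 0.00502), and so was Lgals1, whose call was lost without WKY library 1 or SHR library 3.

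Many cytoskeletal genes are regulated by serum response factor, which binds the CArG box. Of the 22 higher members with a promoter window 4 held this motif, and their windows are shown with the box in capitals. They are RefSeq windows of build GRCr8, 300 bases long: Acta1 at chr19:68784145-68784444, minus strand, Actc1 at chr3:121271778-121272077, minus strand, Actg1 at chr10:106120902-106121201, minus strand and Cnn2 at chr7:10370263-10370562, minus strand.
Acta1: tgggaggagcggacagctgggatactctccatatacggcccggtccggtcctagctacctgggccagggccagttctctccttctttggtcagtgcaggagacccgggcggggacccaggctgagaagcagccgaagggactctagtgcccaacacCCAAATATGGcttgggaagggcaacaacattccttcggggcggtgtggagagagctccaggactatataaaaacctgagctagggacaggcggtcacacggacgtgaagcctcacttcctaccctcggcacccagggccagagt
Actc1: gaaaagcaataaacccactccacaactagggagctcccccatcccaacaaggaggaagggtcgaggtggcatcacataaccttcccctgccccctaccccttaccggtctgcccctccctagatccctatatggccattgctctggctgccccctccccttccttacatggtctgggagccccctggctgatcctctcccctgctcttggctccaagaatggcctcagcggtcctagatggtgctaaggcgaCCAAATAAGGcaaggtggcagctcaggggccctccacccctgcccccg
Actg1: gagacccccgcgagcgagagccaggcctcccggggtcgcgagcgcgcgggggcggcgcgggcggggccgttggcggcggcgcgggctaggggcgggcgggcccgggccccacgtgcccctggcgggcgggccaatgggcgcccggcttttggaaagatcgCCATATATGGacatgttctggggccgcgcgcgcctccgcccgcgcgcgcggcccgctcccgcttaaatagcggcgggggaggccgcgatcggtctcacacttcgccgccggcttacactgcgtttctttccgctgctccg
Cnn2: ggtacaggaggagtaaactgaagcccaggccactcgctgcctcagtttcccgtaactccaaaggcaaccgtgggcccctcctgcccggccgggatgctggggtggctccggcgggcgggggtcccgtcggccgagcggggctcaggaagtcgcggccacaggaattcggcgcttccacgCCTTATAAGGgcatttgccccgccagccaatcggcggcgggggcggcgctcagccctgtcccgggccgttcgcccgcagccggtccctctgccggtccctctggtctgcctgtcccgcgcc
The CArG box was 1 of several motifs searched, on both strands. It occurred in 18.2% of these 22 windows, in 0 of 18 windows of list members that were not called, and in 1.64% of all 27457 windows. Among all genes called higher its share was 1.65%, and among those at least 2-fold higher 0.943%. Among stretch-responsive and Z-disc stress genes it was in 1 of 11 windows of higher members (9.09%) and in 2 of 18 of members not called (11.1%). In the 22 windows of higher cytoskeletal members, the TEAD element CATTCC occurred in 31.8% and the TATA box TATAAA in 22.7%. Each was in 11.1% of windows of cytoskeletal members not called. Their shares were 13.9% and 14.3% over all windows, and 11% and 6.83% over windows of tested genes. Actg1, non-muscle gamma-actin, was at 29.4, 26.4 and 29.7 FPKM in WKY and 40.8, 39.1 and 41 in SHR (log2 difference 0.49 ± 0.09, adjusted p = 0.00433). Actc1, cardiac alpha-actin, was at 7463, 7558 and 7769.5 FPKM in WKY and 9357, 9143 and 9782 in SHR (log2 difference 0.31 ± 0.07, adjusted p = 0.0128), a call lost without WKY library 2 (adjusted p = 0.0526) and after quantile normalization (0.254). Srf, the gene of serum response factor itself, was at 14.3, 14.7 and 13.8 FPKM in WKY and 18.3, 19.7 and 21 in SHR (log2 difference 0.45 ± 0.09, adjusted p = 0.00517).

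Among stretch-responsive and Z-disc stress genes 11 of the 34 tested members (32.4%) were called higher and 0 lower (median 0.24); the higher calls were 17 without rescaling and after quantile or cyclic loess normalization. Nppa, the precursor of atrial natriuretic peptide, was at 1589, 2022 and 2004 FPKM in WKY and 3542, 3300.2 and 6023 in SHR, with SHR library 3 well above the other SHR libraries (log2 difference 1.15 ± 0.27, adjusted p = 0.0118). Hspb7, a small heat shock protein of heart muscle, had tight groups, at 967, 1059 and 954 FPKM in WKY and 1525, 1608 and 1765 in SHR (log2 difference 0.72 ± 0.07, adjusted p = 0.00014). Ankrd23, an ankyrin repeat protein that binds titin, was at 76.9, 67.6 and 78.3 FPKM in WKY and 117, 129 and 174 in SHR (log2 difference 0.90 ± 0.15, adjusted p = 0.0023). Xirp2, an actin-binding protein of the disc and costamere, was at 78.7, 82.2 and 92.1 FPKM in WKY and 150.1, 147 and 208 in SHR (log2 difference 0.98 ± 0.13, adjusted p = 0.000668).

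Atrial markers were examined because the labels name no chamber. Of 7 tested, Nppa and Myl4, both also fetal ventricular genes, were higher and none lower. Myh7, the beta-myosin heavy chain and likewise a fetal ventricular gene, is not on this list and was lower (log2 difference -0.385, adjusted p = 0.00559). Its call was lost after cyclic loess normalization (adjusted p = 0.086). Summed ventricular cardiomyocyte markers were 43173 to 46353 FPKM in WKY and 37866 to 39564 in SHR. Among those 10 markers 1 was higher and 4 lower, with 2 lower without WKY library 2, SHR library 1 or SHR library 3. The lower calls also depended on normalization. Tnni3 was lost after quantile normalization (adjusted p = 0.109) and Pln after cyclic loess normalization (0.182). Myl3 was lost after either (0.626 and 0.312). The part of these markers in the muscle and metabolic results was not tested. Fabp3, the fatty acid binding protein of heart muscle, had the clearest fall, from 5822, 5465 and 5066 FPKM to 3526, 3310.2 and 3276 (log2 difference -0.69 ± 0.08, adjusted p = 0.000253).

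Ion channels shifted in both directions, 26.3% of the 38 tested being lower and 15.8% higher (median -0.12). These 10 lower calls became 6 without WKY library 1 and 5 without SHR library 3, and the 6 higher calls became 3 without SHR library 2 or 3. Kcnj2 and Kcnj12, of the inward rectifier current that holds the resting potential, were lower. Kcnj2 was at 7.49, 8.36 and 7.48 FPKM in WKY and 4.87, 4.64 and 4.02 in SHR (log2 difference -0.73 ± 0.13, adjusted p = 0.00305) and Kcnj12 at 1.93, 1.79 and 1.7 FPKM in WKY and 0.791, 0.994 and 0.906 in SHR (log2 difference -0.72 ± 0.14, adjusted p = 0.004). Kcna2, a delayed rectifier subunit, was at 4.31, 5.63 and 4.63 FPKM in WKY and 2.11, 2.51 and 1.49 in SHR (log2 difference -1.09 ± 0.17, adjusted p = 0.00152). Trpc6, a receptor-operated calcium-permeable channel, was higher, at 0.131, 0.133 and 0.206 FPKM in WKY and 0.736, 1.12 and 1.15 in SHR (log2 difference 1.18 ± 0.19, adjusted p = 0.00201). Hcn4, the pacemaker channel, was at 2.63, 1.92 and 2.48 FPKM in WKY and 4.16, 3.88 and 5.33 in SHR (log2 difference 0.80 ± 0.17, adjusted p = 0.00688).

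At the intercalated disc, where myocytes join, 1 of the 26 tested members (3.85%) were called higher and 5 lower, with 3 lower without WKY library 1, WKY library 2 or SHR library 2. Cxadr, a cell adhesion protein of tight junctions and of the disc, was at 10.6, 9.73 and 10.3 FPKM in WKY and 3.58, 3.1 and 2.63 in SHR, a 3.3-fold difference between tight groups (log2 difference -1.58 ± 0.11, adjusted p = 1.43e-05). Tmem65, a mitochondrial and disc membrane protein, was at 77.3, 80.03 and 83.8 FPKM in WKY and 58.1, 34.6 and 34.3 in SHR, with SHR library 1 between the other SHR libraries and WKY (log2 difference -0.96 ± 0.17, adjusted p = 0.00286). Ctnna3, alpha-T-catenin, was lower as well (-0.40, adjusted p = 0.0111). The single higher call, Bves, was lost when any 1 of the 9 libraries was left out.

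Adrenergic and muscarinic genes were called lower in 9 of 37 cases and higher in 6 (median 0.05). The lower calls became 5 without WKY library 2, WKY library 3 or SHR library 3, and the higher calls 3 without SHR library 2. Chrm2, the muscarinic receptor of the heart, was at 36.9, 38.8 and 36.2 FPKM in WKY and 24, 23.8 and 23.8 in SHR, nearly constant within each strain (log2 difference -0.63 ± 0.09, adjusted p = 0.000846). Adra1d, an alpha-1 receptor, was at 1.02, 1.61 and 1.34 FPKM in WKY and 0.649, 0.223 and 0.403 in SHR (log2 difference -0.99 ± 0.21, adjusted p = 0.00715). Slc22a3, the transporter that clears catecholamines into non-neuronal cells, was at 5.91, 7.16 and 4.96 FPKM in WKY and 3.05, 3.29 and 1.93 in SHR (log2 difference -1.01 ± 0.17, adjusted p = 0.00238). Adcy6, a main cardiac adenylyl cyclase, was lower at 20.4, 18.6 and 16.6 FPKM in WKY and 12.1, 13.1 and 14 in SHR (log2 difference -0.49 ± 0.10, adjusted p = 0.00674), whereas Adcy7, a cyclase of blood cells, was higher at 0.28, 0.19 and 0.4 FPKM in WKY and 1.09, 1.06 and 1.08 in SHR (log2 difference 1.01 ± 0.16, adjusted p = 0.00172).

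Among vasoactive peptide, nitric oxide and prostanoid genes 7 of the 27 tested members (25.9%) were called higher and 3 lower, and these became 4 and 1 without SHR library 3, with 1 lower also without WKY library 2 or SHR library 1. Ptgis, prostacyclin synthase, was at 3.71, 3.42 and 4.76 FPKM in WKY and 12.2, 11 and 13.6 in SHR (log2 difference 1.52 ± 0.22, adjusted p = 0.000916). Bdkrb2, the constitutive bradykinin receptor, was at 0.17, 0.318 and 0.313 FPKM in WKY and 0.945, 1.01 and 1.09 in SHR (log2 difference 0.99 ± 0.15, adjusted p = 0.00121). Corin, the protease that activates natriuretic peptide precursors, was lower while Nppa was higher. It stood at 42.5, 42.8 and 37.2 FPKM in WKY and 30.1, 29.3 and 29.99 in SHR (log2 difference -0.45 ± 0.08, adjusted p = 0.00339).

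Among cardiac transcription factors and related genes 3 of the 39 tested members (7.69%) were called higher and 6 lower, shares of 7.69% and 15.4% near those of all genes. The lower calls became 1 without WKY library 1 or 2, 2 without SHR library 2 and 3 without SHR library 3. Creg1, which encodes a secreted glycoprotein first described as a repressor of E1A-activated genes, was at 3.93, 3.76 and 5.46 FPKM in WKY and 23, 26.2 and 24.8 in SHR, 5.64 times higher (log2 difference 2.38 ± 0.14, adjusted p = 2.69e-06). Runx1, a blood cell factor that reappears in injured myocytes, was at 0.155, 0.356 and 0.432 FPKM in WKY and 1.66, 1.04 and 1.49 in SHR (log2 difference 1.22 ± 0.20, adjusted p = 0.00221). Mef2a was the lower call that persisted without any 1 library, at 23.4, 24.5 and 21.4 FPKM in WKY and 17.5, 16.8 and 17.7 in SHR (log2 difference -0.40 ± 0.07, adjusted p = 0.00318).

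Lists of fuel use had more lower than higher calls, although most members, over these lists as a whole, were not called. Lower calls also outnumbered higher calls among all 526 genes of 100 FPKM or more, 136 against 57. Pdk4, Sucla2, Mdh1 and Aldh6a1, given below, are genes of that level. The part of expression level in these counts was not tested. No member of the lipid droplet and triglyceride list was called higher and 8 of 28 (28.6%) were lower, with a median of -0.25. Cidea, a protein that enlarges lipid droplets, was at 102, 78.6 and 76 FPKM in WKY and 33.8, 23.8 and 25.2 in SHR, a 3.1-fold difference (log2 difference -1.62 ± 0.14, adjusted p = 3.76e-05). Gpam, the acyltransferase that starts triglyceride synthesis, was at 53.6, 47 and 54.4 FPKM in WKY and 33.5, 28.1 and 22.7 in SHR (log2 difference -0.88 ± 0.16, adjusted p = 0.00339). Fitm2, needed to release droplets from the endoplasmic reticulum, was at 58.9, 62 and 50.2 FPKM in WKY and 32.9, 32.5 and 29.6 in SHR (log2 difference -0.84 ± 0.12, adjusted p = 0.000728), and Agpat3, a later acyltransferase, had a log2 change of -0.73.

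Among genes of pyruvate entry into the mitochondrion and its regulators, 6 of 21 were called lower and none higher (median -0.13). The list mixes enzymes with kinases that restrain them, so these counts give no direction for pyruvate entry. The largest change was in Pdk4, the kinase that shuts the pyruvate dehydrogenase complex when fatty acids are burned. It was at 768, 668 and 635 FPKM in WKY and 260.4, 168 and 170.3 in SHR, and SHR library 1 stood above the other SHR libraries (log2 difference -1.81 ± 0.22, adjusted p = 0.000347). Pdk1, another kinase of this complex, was also lower (-0.33, adjusted p = 0.0097), as was Me3, a mitochondrial malic enzyme (-0.40, adjusted p = 0.00704).

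Calls in the citrate cycle were all lower and small. Of the 20 tested members 0 were called higher and 10 lower, with a median of -0.23 and no member changed by more than 0.40 on the log2 scale; the lower calls were 5 after quantile normalization, 6 without WKY library 1 and 5 without SHR library 3. Sucla2, a subunit of succinyl-CoA ligase, was at 367, 331 and 354 FPKM in WKY and 273, 279 and 247 in SHR (log2 difference -0.40 ± 0.07, adjusted p = 0.00283). Mdh1, the cytosolic malate dehydrogenase, was at 1109, 1069 and 996 FPKM in WKY and 823, 860.0 and 794 in SHR (log2 difference -0.36 ± 0.07, adjusted p = 0.00342). Fh, fumarase, had a log2 change of -0.35 and Sdhc, a membrane anchor of succinate dehydrogenase, of -0.38.

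Breakdown of branched-chain amino acids and propionate had the highest share of lower calls, 14 of 26 (53.8%), beside 1 higher (median -0.30). These became 9 without rescaling, 9 without WKY library 1 or SHR library 2, and 7 without WKY library 2 or SHR library 3. The calls ran along the pathway. Dbt, the core of the branched-chain keto acid dehydrogenase, was at 71.1, 67.7 and 65.5 FPKM in WKY and 46.8, 48.6 and 43.9 in SHR (log2 difference -0.55 ± 0.09, adjusted p = 0.00262). Ppm1k, the phosphatase that activates this complex, was at 27.8, 32.8 and 29.8 FPKM in WKY and 21.6, 20.8 and 17.9 in SHR (log2 difference -0.57 ± 0.10, adjusted p = 0.00262). Aldh6a1, a dehydrogenase of valine breakdown, was at 298, 307 and 307 FPKM in WKY and 234, 195 and 172 in SHR (log2 difference -0.61 ± 0.10, adjusted p = 0.00211), and Pccb, a subunit of propionyl-CoA carboxylase, had a log2 change of -0.55. The higher call was Bcat1, the cytosolic transaminase at the head of the pathway, at 0.7, 0.663 and 1.43 FPKM in WKY and 3.43, 3.13 and 4.33 in SHR (log2 difference 1.56 ± 0.22, adjusted p = 0.000888).

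Among creatine, adenylate and phosphotransfer genes 4 of the 22 tested members (18.2%) were called higher and 8 lower (median -0.15), with 5 lower after cyclic loess normalization. The creatine kinases went in opposite directions. Ckm, the muscle form, was at 1582, 1356 and 1284 FPKM in WKY and 1070.0, 1075 and 949 in SHR (log2 difference -0.44 ± 0.09, adjusted p = 0.00532), and Ckb, the brain form also found in fetal heart, was at 89.96, 93.1 and 86.1 FPKM in WKY and 149, 139.6 and 148 in SHR (log2 difference 0.69 ± 0.12, adjusted p = 0.00221). Ak1, the cytosolic adenylate kinase, was higher (0.36, adjusted p = 0.00537).

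Ketone body and thioester enzymes held 1 higher and 3 lower of 13. Bdh1, which turns ketone bodies over, was higher, at 16.1, 22.5 and 20.7 FPKM in WKY and 32.5, 38.2 and 34 in SHR (log2 difference 0.81 ± 0.12, adjusted p = 0.00124). Acot2, a mitochondrial acyl-CoA thioesterase, was lower, at 132, 94.3 and 88.1 FPKM in WKY and 56.6, 53.5 and 49.8 in SHR (log2 difference -0.95 ± 0.13, adjusted p = 0.000667). The PGC-1, PPAR and ERR regulators that set mitochondrial gene expression had 3 lower calls of 24 and none higher (median -0.16), a lower share of 12.5% near that of all genes. None of these remained without WKY library 2, 1 did without SHR library 2, and 6 members were lower without SHR library 1.

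Lipid synthesis had calls in both directions. Of 32 cholesterol and fatty acid synthesis genes 8 were higher and 2 lower (median 0.24), with 4 higher without SHR library 3. Scd2, a stearoyl-CoA desaturase, was at 3.85, 4.48 and 4.97 FPKM in WKY and 14.2, 16 and 15.4 in SHR (log2 difference 1.68 ± 0.11, adjusted p = 9.3e-06). Fads2, the desaturase of long polyunsaturated fatty acids, was at 1.24, 1.21 and 1.69 FPKM in WKY and 3.35, 3.08 and 2.56 in SHR (log2 difference 0.90 ± 0.14, adjusted p = 0.00138). Acacb, whose product malonyl-CoA holds back fatty acid entry into mitochondria, was lower, at 33.9, 34.7 and 32.9 FPKM in WKY and 22.6, 22.9 and 18.8 in SHR (log2 difference -0.65 ± 0.09, adjusted p = 0.000581). Fdft1, squalene synthase, was lower too (-0.78, adjusted p = 0.000377).

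**Figure D4:**
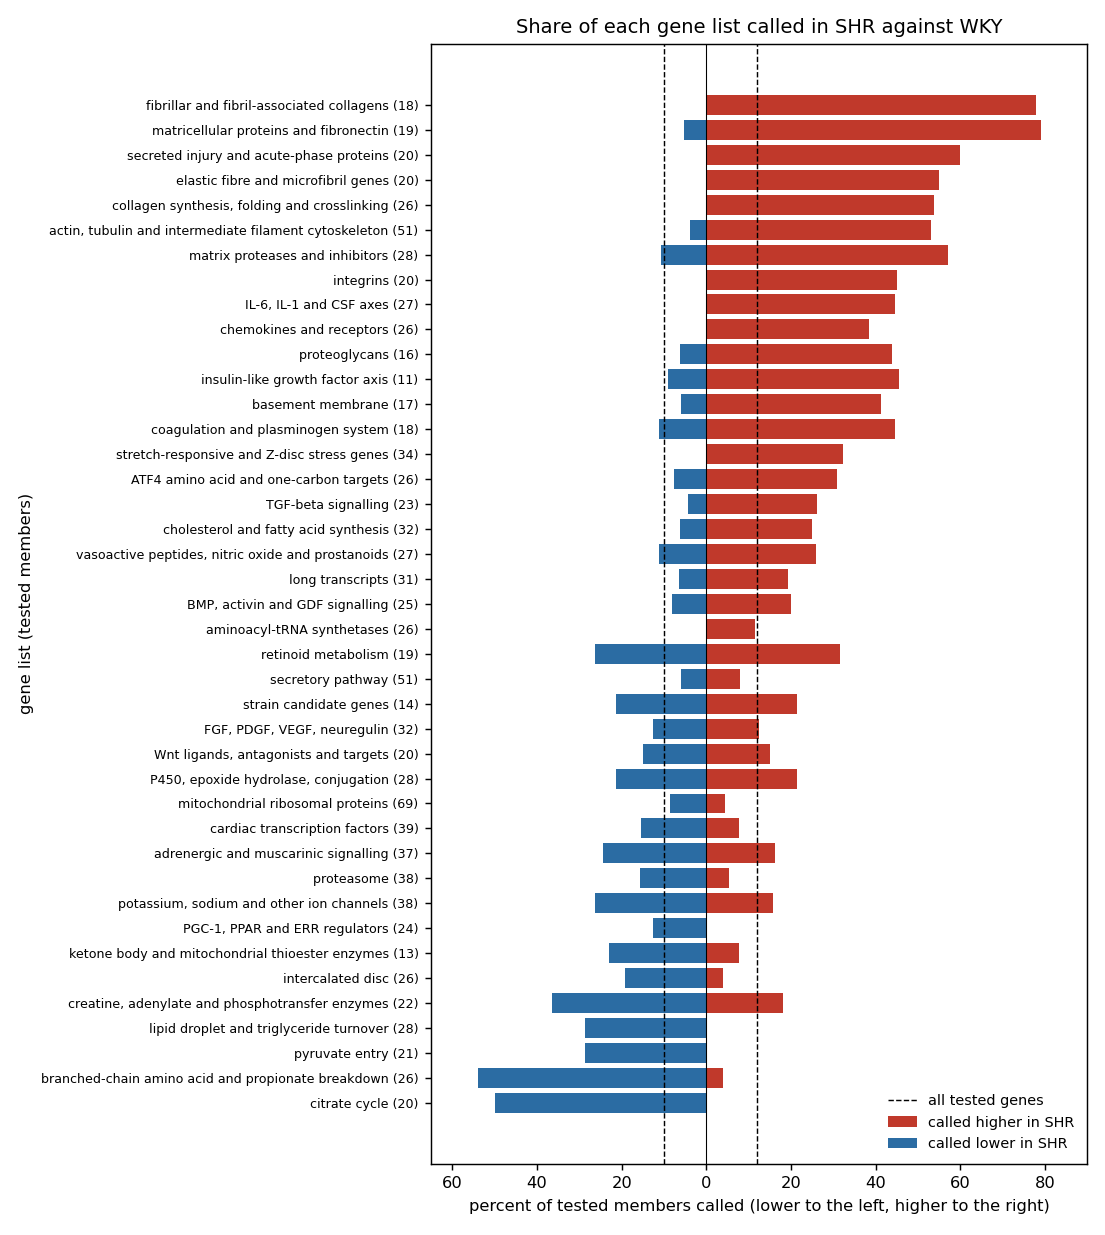
Bars give the percent of tested members called higher in SHR (red, to the right) and lower (blue, to the left) for each of 41 gene lists, with the number of tested members in brackets. Dashed lines mark the shares over all tested genes, 11.9% and 9.93%, and the matricellular and fibrillar collagen lists reach furthest to the right (78.9% and 77.8%) and the branched-chain amino acid and citrate cycle lists furthest to the left (53.8% and 50%).

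Of the targets of ATF4, the factor that answers amino acid shortage and protein stress, 8 of the 26 tested members (30.8%) were called higher and 2 lower (median 0.31). The lower calls became 1 without WKY library 2, WKY library 3, SHR library 1 or SHR library 2, Stc2 being the larger of them. Asns, asparagine synthetase, was at 0.516, 0.324 and 0.422 FPKM in WKY and 1.59, 1.95 and 1.79 in SHR (log2 difference 1.31 ± 0.15, adjusted p = 0.000253). Mthfd2, a mitochondrial one-carbon enzyme, was at 0.582, 1.05 and 1.04 FPKM in WKY and 2.09, 3.19 and 3.61 in SHR (log2 difference 1.31 ± 0.22, adjusted p = 0.00214). Atf5, a related factor, was at 14.5, 15.4 and 13.9 FPKM in WKY and 24.3, 27.2 and 31.2 in SHR (log2 difference 0.89 ± 0.13, adjusted p = 0.00084).

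The machinery that makes, exports and removes proteins had few calls. Aminoacyl-tRNA synthetases had 3 of 26 higher and none lower, with 6 higher without rescaling and 5 without SHR library 1. Mitochondrial ribosomal proteins had 3 higher and 6 lower of 69, with 10 lower without WKY library 3. Mrpl4 stood apart from the rest of that list, at 88.2, 96.1 and 94.2 FPKM in WKY and 44, 41.4 and 39 in SHR (log2 difference -1.15 ± 0.07, adjusted p = 3.01e-06). The secretory pathway list had 4 higher and 3 lower of 51, with none lower without WKY library 2 and 2 higher without SHR library 3. The proteasome list had 2 higher and 6 lower of 38, and at most 1 higher and 2 lower without WKY library 1, SHR library 2 or SHR library 3. Its 2 largest changes had opposite signs in the interferon-induced part: Psmb8, an immunoproteasome subunit, was higher at 2.42, 2.5 and 3.56 FPKM in WKY and 6.34, 5.7 and 5.52 in SHR (log2 difference 0.95 ± 0.14, adjusted p = 0.00129), and Psme1, a subunit of the activator ring, was lower at 268, 228 and 217 FPKM in WKY and 168, 171 and 151 in SHR (log2 difference -0.54 ± 0.09, adjusted p = 0.00197).

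Retinoid genes included one of the largest falls in the data. Among 19 tested members 6 were higher and 5 lower, with 3 lower without WKY library 1, WKY library 2 or SHR library 3. Retsat, retinol saturase, was at 286, 249.6 and 221 FPKM in WKY and 36.9, 31.1 and 36.8 in SHR, 7.22 times lower in SHR (log2 difference -2.83 ± 0.12, adjusted p = 3.99e-07). Dhrs7c, a reductase of the sarcoplasmic reticulum, was at 112, 109 and 109 FPKM in WKY and 67.2, 74.7 and 49.4 in SHR (log2 difference -0.80 ± 0.13, adjusted p = 0.00182). Aldh1a3, which makes retinoic acid, was higher from a low level, at 0.587, 0.347 and 0.365 FPKM in WKY and 1.09, 1.89 and 2.13 in SHR (log2 difference 1.22 ± 0.22, adjusted p = 0.00368).

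Cytochrome P450, epoxide hydrolase and conjugating enzymes were called higher in 6 of 28 cases and lower in 6, with 3 lower without SHR library 3. Cyp2e1, which oxidizes ethanol and ketones, was at 58.6, 39.5 and 30.9 FPKM in WKY and 2.97, 3.34 and 1.69 in SHR, 16.1 times lower in SHR (log2 difference -3.77 ± 0.32, adjusted p = 4e-05). Por, the reductase that supplies P450 enzymes with electrons, was lower as well (-0.60, adjusted p = 0.00175). Cyp1b1, a P450 of fibroblasts and vessels, was at 2.22, 1.72 and 1.13 FPKM in WKY and 5.36, 5.4 and 5.68 in SHR (log2 difference 1.48 ± 0.17, adjusted p = 0.000229).

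Of 14 tested genes named as strain candidates in earlier rat genetics, 3 were higher and 3 lower. Ephx2, the soluble epoxide hydrolase that degrades vasodilating epoxides of arachidonic acid, was at 9.74, 6.34 and 6.89 FPKM in WKY and 24.7, 26.7 and 26.4 in SHR (log2 difference 1.72 ± 0.13, adjusted p = 2.28e-05). Gpr183, an oxysterol receptor of immune cells, was at 0.498, 0.48 and 0.287 FPKM in WKY and 1.77, 1.98 and 2.41 in SHR (log2 difference 1.47 ± 0.16, adjusted p = 0.000164). Endog, a mitochondrial nuclease linked to heart mass in SHR crosses, was at 39.8, 44.2 and 32.8 FPKM in WKY and 5.4, 5.53 and 4.36 in SHR, 7.64 times lower (log2 difference -2.81 ± 0.16, adjusted p = 2.69e-06). Cd36, the fatty acid translocase that carries a known defect in some SHR lines, was at 145, 100.4 and 106 FPKM in WKY and 56.7, 55.4 and 57 in SHR (log2 difference -1.03 ± 0.26, adjusted p = 0.0167); the adjusted p was 0.0655 without WKY library 1 and 0.0515 without SHR library 3. Ogn, osteoglycin, stood at 1.48, 0.71 and 0.72 FPKM in WKY and 0.882, 0.384 and 0.465 in SHR and was not called, and the groups overlapped. Acsm3, Agt, Agtr1b and Folr1 were among those too low to be tested.

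Some genes were close to absent in one strain. Cbr3, a carbonyl reductase, was listed at 0 in all 3 WKY libraries and at 1.79, 2.17 and 1.52 FPKM in SHR (log2 difference 2.21 ± 0.20, adjusted p = 6.03e-05), and Gng13, a G protein gamma subunit, was listed at 0 in WKY and at 1.6, 0.306 and 1.34 in SHR (log2 difference 1.55 ± 0.35, adjusted p = 0.0108). Ifit1, an interferon-induced gene, was under 0.1 FPKM in WKY and at 10.9, 7.35 and 6.07 in SHR (log2 difference 3.92 ± 0.18, adjusted p = 5.02e-07). Defb1, a beta-defensin of epithelia, was at 0, 0.428 and 0.446 FPKM in WKY and 8.27, 15.7 and 21.2 in SHR (log2 difference 4.26 ± 0.35, adjusted p = 2.92e-05). In the other direction, Rims1, a protein of synaptic vesicle release, was at 3.74, 3.22 and 3.98 FPKM in WKY and 0.025, 0.0562 and 0.0662 in SHR (log2 difference -2.91 ± 0.14, adjusted p = 9.87e-07). Haghl was at 2.73, 1.75 and 2.43 FPKM in WKY and 0, 0.164 and 0 in SHR, and its neighbour Ccdc78, a protein of centriole formation, at 6.87, 5.66 and 4.56 FPKM in WKY and 0.249, 0.079 and 0.127 in SHR (log2 difference -3.24 ± 0.20, adjusted p = 4.52e-06). Macrod2, which removes ADP-ribose from proteins, was lower from a higher level, at 77.3, 77.5 and 68.3 FPKM in WKY and 16.3, 10.1 and 9.38 in SHR (log2 difference -2.63 ± 0.17, adjusted p = 4.77e-06).

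Further large changes concerned genes of other functions. Eno1, the glycolytic enolase found in most tissues, was at 44.6, 44.9 and 41.7 FPKM in WKY and 339, 352 and 376 in SHR, the change with the smallest adjusted p among named genes (log2 difference 3.01 ± 0.07, adjusted p = 2.19e-09). Ncam1, a neural cell adhesion molecule also made by stressed myocytes, was at 1.16, 1.52 and 1.43 FPKM in WKY and 8.36, 8.66 and 14.4 in SHR (log2 difference 2.51 ± 0.19, adjusted p = 2.26e-05). Amd1, the decarboxylase that commits S-adenosylmethionine to polyamines, was at 123, 128 and 106 FPKM in WKY and 31.6, 28.5 and 28.8 in SHR, 4.02 times lower (log2 difference -1.99 ± 0.08, adjusted p = 3.62e-07). Serhl2, a serine hydrolase-like gene, was at 19.1, 17.4 and 18.2 FPKM in WKY and 1.87, 2.28 and 1.28 in SHR (log2 difference -3.04 ± 0.18, adjusted p = 2.85e-06). Eno1, Amd1, the RT1 genes of the rat major histocompatibility complex and the Ms4a6 and Reg3 families have near-identical copies, so their counts could be split between copies.

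Very long transcripts gave no common direction, with 6 higher and 2 lower of 31, and 3 higher without SHR library 2 or 3. Lrp1, a large endocytic receptor, was at 6.09, 7.4 and 8.29 FPKM in WKY and 18, 17.6 and 19.2 in SHR (log2 difference 1.28 ± 0.14, adjusted p = 0.00019). Dmd, dystrophin, was lower (-0.36, adjusted p = 0.00931).

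Genes that changed by 2-fold or more lay near each other more often than genes overall. Gene order was taken from RefSeq build GRCr8, which placed 11507 tested genes. The next tested gene beside a gene called at least 2-fold changed was itself called at least 2-fold changed in 62 of 770 cases (8.05%), against 3.35% of all placed genes. Both sides of each gene were counted, so a pair of such genes entered the 62 once from each member. These pairs included related RT1, Ms4a6 and Reg3 genes, whose counts could be split between copies. At a distance of 20 tested genes the share was 2.92%. Neighbours that were called at all made up 27.5% at distance 1 and 20.3% at distance 20, against 22% overall. Of the called neighbours, 61.8% changed in the same direction at distance 1 and 48.4% at distance 20. Adjacent sets included C1qb, C1qc and C1qa on chromosome 5 (log2 changes of 1.23, 1.02 and 1.26), Col3a1 and Col5a2 on chromosome 9 (2.11 and 1.09), and Tnfrsf11b and Nov on chromosome 7 (1.59 and 1.09). Other sets mixed directions. RT1-CE4, RT1-CE7, RT1-CE3 and RT1-CE2 on chromosome 20 had log2 changes of 1.26, -1.15, -1.81 and 1.20, and Ms4a6bl, Ms4a6b and Ms4a6a on chromosome 1 had 2.40, -1.40 and 1.11.

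**Figure D5:**
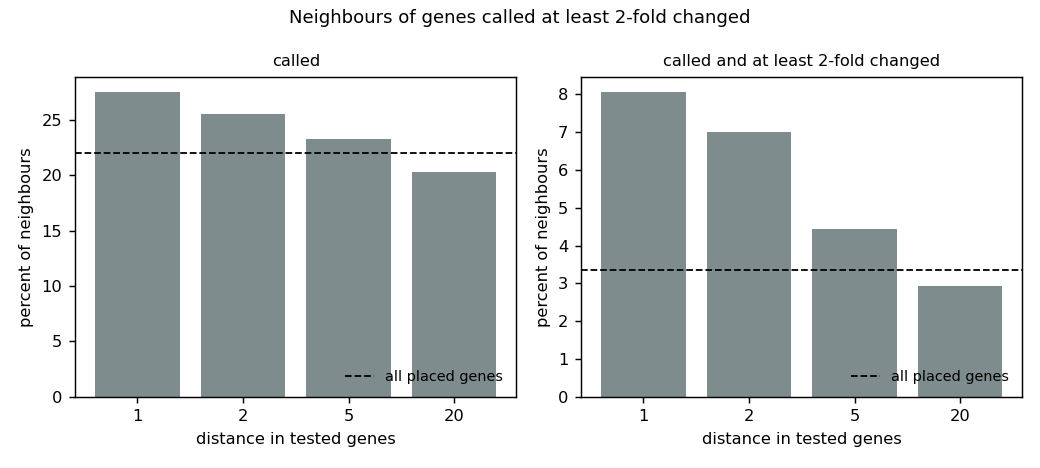
Bars give the percent of tested genes at a distance of 1, 2, 5 or 20 tested genes from a gene called at least 2-fold changed that were themselves called (left) or called and at least 2-fold changed (right). Dashed lines mark the shares over all 11507 placed genes, 22% and 3.35%, and the bars on the right drop from 8.05% at distance 1 to 2.92% at distance 20.

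Markers of other cell types were examined in the same way. None of 12 endothelial markers was called; their summed level was 876 to 1075 FPKM in WKY and 754 to 895 in SHR, and Pecam1 stood at 31.9, 31.6 and 32.2 FPKM in WKY and 32.8, 31.3 and 34.5 in SHR. None of the Schwann cell, neutrophil, mesothelial or erythroid markers tested was called, with summed erythroid levels of 299 to 580 FPKM in WKY and 171 to 325 in SHR. Smooth muscle markers had 3 of 8 higher and none lower, among them Tagln, the actin-binding transgelin, at 26.4, 27.5 and 38.1 FPKM in WKY and 60.3, 44.6 and 62.8 in SHR (log2 difference 0.86 ± 0.18, adjusted p = 0.00615), and Acta2, smooth muscle actin (0.57, adjusted p = 0.00705). Pericyte markers had 2 of 8 higher and 1 lower. Of 3 tested skeletal muscle markers, which include Acta1 and Ckm, 2 were higher and 1 lower, and the summed level of the whole list was 1896 to 2294 FPKM in WKY and 3359 to 4018 in SHR. Single higher calls fell among 7 lymphatic endothelial, 3 mast cell and 2 chondrocyte and osteoblast markers. Of 2 tested adipocyte markers 1 was called higher, and the summed level of the whole adipocyte list was 6.2 to 10.4 FPKM in WKY and 10.2 to 12.4 in SHR, while Adipoq, the defining gene of fat cells, was at most 0.126 FPKM in any library. The part of these cell types in the results was not tested.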

How the data were processed

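Heart RNA of 3 WKY, 3 SHR and 3 allisartan-treated SHR libraries was sequenced. The authors deposited 1 table of FPKM values per gene and library. The tools named in the submitters' processing notes are HISAT2, Trimmomatic, HTSeq, DESeq and Cufflinks, and the build is Rnor_6.0; versions and settings are not given there. FPKM are normalized for length and library size and are not counts, so read depth is known only in relative terms, from the spacing of values under 0.2 FPKM. Of 22601 genes, 20633 (91.3%) matched RefSeq by GeneID, and 27 symbols that had been turned into dates were restored.

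Values were divided by 1 factor per library (median of ratios). Genes at 0.5 FPKM or more in at least 3 libraries were tested with limma 3.58.1 in R 4.3.3 on log2(rescaled FPKM + 0.5) with a variance trend. All 9 libraries and 1 mean per group were fitted, leaving 6 residual degrees of freedom, and only SHR minus WKY was read. Tests were two-sided, p-values were adjusted by Benjamini-Hochberg over all 11717 genes, and values under 0.05 counted as calls. Errors after ± are standard errors. Log2 changes on this scale understate the change of low genes. The fit was tested on simulated data.

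Gene lists are described by counts of calls beside the share over all genes, with no set test. The text names the 15 largest rises and falls, the 8 largest differences in FPKM each way, genes at 0 in one strain, up to 5 called members of each list in each direction, the strain candidates, and members or markers singled out after their values were seen, such as Col1a2, Actg1, Mt1, Pdgfra, Tnnt2, Adgre1, Cd3e, Adipoq and Pecam1. The members and lists were chosen with earlier results of these data known. Promoters are RefSeq windows of build GRCr8, which 9449 (80.6%) of the tested genes have. Replicate numbers did not pair the libraries.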

Additional observations from a re-analysis of the deposited data

How the results depend on the processing

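The 2561 calls (1398 higher, 1163 lower) fell to 57 (44 and 13) when tested against a change of 2-fold. Leaving out each of the 9 libraries in turn gave 1551 to 2623 calls, of which 892 to 1442 were higher and 659 to 1181 lower; the fewest came without SHR library 3, and the cause was not tested. The other alternatives run (no rescaling, quantile or cyclic loess normalization, pseudocounts of 1 and 0.1, no filter, a filter at 1, robust moderation, array weights and only the 6 libraries) gave 2444 to 2964 calls. Deviations of same-numbered libraries correlated at 0.015, 0.011 and -0.013, so the numbers were not read as a pairing, and a replicate block gave 2544 calls. Of the 309 called genes that the naming rule selected, which the text names in part, none changed direction where an alternative gave a value, and 234 of the 297 with a value were still called without SHR library 3, 298 without rescaling and 278 without a filter. Without counts, the counting error of genes near 0 FPKM is unknown.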
